A study of Mus musculus with 20 samples.

Results

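H3K4me1 was profiled by Cut&Tag in sorted Nkx2.1 lineage cells, with 2 libraries of WT and 2 of Tcf4 cKO mice, which are 4 of the 20 samples of the series. The GFP-positive cells came from the neocortex of pups at postnatal day 7 or 8, and 50000 cells went into each library. The Tcf4 cKO mice carried floxed Tcf4 alleles and Nkx2.1-Cre (Tcf4 f/f; Nkx2.1-Cre), and both genotypes carried the Cre and the GFP reporter by which the cells were sorted. Nkx2.1-Cre is active in ventral telencephalic progenitors, so the sorted cells hold all of their neocortical progeny, glia and interneurons alike. In such bulk libraries, fewer cells with a mark and less of the mark per cell cannot be told apart. The remaining assays used below were ATAC-seq, H3K27ac and H3K27me3 with 2 libraries per genotype each, and 2 anti-Flag Cut&Tag libraries of a Tcf4-tag mouse that had not lost Tcf4. Whether libraries of a genotype came from separate litters is not given in the sources used here, so their spread may be technical.

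All peaks of the 4 H3K4me1 libraries were merged genome-wide where they overlapped by at least 1 bp, which gave 107014 regions. A region was counted as gained when it carried a peak in each Tcf4 cKO library but in no WT library, as lost in the reverse case, and as kept with a peak in all 4. This gave 8037 gained, 2830 lost and 26099 kept regions (24.4% of all), and the other 70048 regions had a mixed pattern.

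H3K4me1 is the monomethylated form of lysine 4 on histone H3, placed by the methyltransferases KMT2C and KMT2D at enhancers and on the flanks of promoters. It marks both active and primed enhancers, and H3K27ac on the same nucleosomes distinguishes the active ones, while H3K27me3 is the mark of Polycomb repression. Tcf4 is a class I basic helix-loop-helix factor, or E protein, that binds the E-box (CANNTG) as a dimer with itself or with factors such as Olig2 and the Neurod proteins, and Id proteins block that binding. NFI factors such as Nfia and Nfib, which bind the half-site TTGGCA, act in astrocyte differentiation.

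Sequence around the summit of 6 regions is shown first, because these letters recur in the comparison of cores below. Each window has 300 bases on the plus strand of GRCm38, written in lower case. Capitals mark the E-box core CAGCTG, which reads alike on both strands. They also mark a second E-box core with the letters CATCTG. The third core in capitals is the NFI half-site TTGGCA. A core on the minus strand appears as its reverse complement. The gained regions are those nearest to Spp1 (chr5:104432895-104433194, intergenic), Igfbp3 (chr11:7705395-7705694, intergenic) and Glul (chr1:154044801-154045100, in an intron). The lost regions are those nearest to Lrriq3 (chr3:155177706-155178005, in an intron), Id4 (chr13:47811359-47811658, intergenic) and Gjb6 (chr14:57135285-57135584, intergenic).
Spp1: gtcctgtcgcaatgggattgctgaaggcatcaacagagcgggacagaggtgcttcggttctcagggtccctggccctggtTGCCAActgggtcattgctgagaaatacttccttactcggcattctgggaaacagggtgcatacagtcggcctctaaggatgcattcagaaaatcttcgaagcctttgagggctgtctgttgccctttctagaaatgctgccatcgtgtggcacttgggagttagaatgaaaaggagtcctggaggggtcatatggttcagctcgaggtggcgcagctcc
Igfbp3: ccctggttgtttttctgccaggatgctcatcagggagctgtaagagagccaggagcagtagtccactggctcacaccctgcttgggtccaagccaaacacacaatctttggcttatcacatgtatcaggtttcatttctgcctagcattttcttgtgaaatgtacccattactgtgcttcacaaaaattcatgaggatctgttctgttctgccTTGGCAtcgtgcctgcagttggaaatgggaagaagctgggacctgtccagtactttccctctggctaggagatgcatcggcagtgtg
Glul: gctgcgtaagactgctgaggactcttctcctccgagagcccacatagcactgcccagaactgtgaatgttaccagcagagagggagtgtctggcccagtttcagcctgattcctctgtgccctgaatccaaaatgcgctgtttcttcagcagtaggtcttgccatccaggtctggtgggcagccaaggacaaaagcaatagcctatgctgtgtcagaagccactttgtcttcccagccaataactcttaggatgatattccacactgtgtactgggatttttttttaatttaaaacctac
Lrriq3: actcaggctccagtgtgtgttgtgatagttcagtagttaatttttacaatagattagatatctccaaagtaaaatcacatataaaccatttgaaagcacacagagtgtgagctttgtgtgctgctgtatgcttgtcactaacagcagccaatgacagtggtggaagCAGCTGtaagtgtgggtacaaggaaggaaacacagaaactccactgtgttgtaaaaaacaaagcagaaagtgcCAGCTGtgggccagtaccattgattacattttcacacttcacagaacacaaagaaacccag
Id4: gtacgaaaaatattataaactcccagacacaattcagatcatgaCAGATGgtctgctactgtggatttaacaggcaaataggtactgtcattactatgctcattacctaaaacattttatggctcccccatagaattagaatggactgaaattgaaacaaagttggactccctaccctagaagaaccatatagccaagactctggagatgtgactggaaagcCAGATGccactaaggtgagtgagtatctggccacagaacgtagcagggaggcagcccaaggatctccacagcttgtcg
Gjb6: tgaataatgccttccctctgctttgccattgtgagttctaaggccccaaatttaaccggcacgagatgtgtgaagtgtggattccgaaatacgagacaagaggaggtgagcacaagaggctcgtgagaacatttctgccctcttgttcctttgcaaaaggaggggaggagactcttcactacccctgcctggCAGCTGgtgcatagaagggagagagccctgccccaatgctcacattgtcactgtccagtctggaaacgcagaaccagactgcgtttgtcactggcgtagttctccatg
The windows of Spp1 and Igfbp3 each held 1 NFI half-site and no CAGCTG. The window of Lrriq3 held 2 CAGCTG cores and that of Gjb6 held 1, whereas Id4 had 2 CATCTG cores. The window of Glul held none of these cores.

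The H3K4me1 lists were longer in Tcf4 cKO than in WT. WT replicates 1 and 2 had 51507 and 59523 peaks, and Tcf4 cKO replicates 1 and 2 had 72788 and 65047. The genotypes did not overlap, but with 2 libraries against 2 the smallest p of the two-sided exact permutation test is 0.333, which was also the p reached here. The length under peaks was 30.0 ± 3.899 Mb for the WT lists, against 40.2 ± 3.34 Mb for those of Tcf4 cKO (SD, n = 2). The libraries also differed in recovered depth. MACS2 computes the fold enrichment and the p-value of a peak from the number of fragments stacked at the summit and the local rate expected there, so both could be recovered for all but 1 to 3 peaks of each library. The genome-wide rate was 1.26 and 1.23 expected fragments at a base in the WT libraries and 1.69 and 1.55 in the Tcf4 cKO libraries. It is proportional to the number of fragments in a library only at equal fragment length, which was not checked. Taken at equal fragment length, every Tcf4 cKO library was deeper than both WT libraries, on average by 1.30 times. The median summit stood on 14 fragments in each WT library and on 16 in each Tcf4 cKO library.

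Which class was the larger one changed with how the lists were matched. With all deposited peaks, gained regions made up 7.51% of the 107014 regions and lost regions 2.64%, so 74.0% of the changed regions were gained (Wilson 95% interval 73.1 to 74.8%, counting error only). With the 51507 peaks of lowest q-value in every library, 4482 regions were gained (4.92% of 91119) and 4101 were lost (4.5%). When the pileups were scaled to the lowest genome-wide rate of the 4 libraries and only peaks with a scaled -log10 p of at least 5 were used, 3265 regions were gained (3.97% of 82339) and 4533 were lost (5.51%). The excess of gained regions was therefore present with all deposited peaks, nearly absent in lists of equal length and turned into an excess of lost regions with depth-scaled peaks. That scaling matched the genome-wide rate alone, on peaks already called, and its lists still held 43425 and 51424 peaks in WT and 41982 and 44000 in Tcf4 cKO. The same limit on -log10 p without scaling left 6935 gained and 2644 lost regions.

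**Figure D1:**
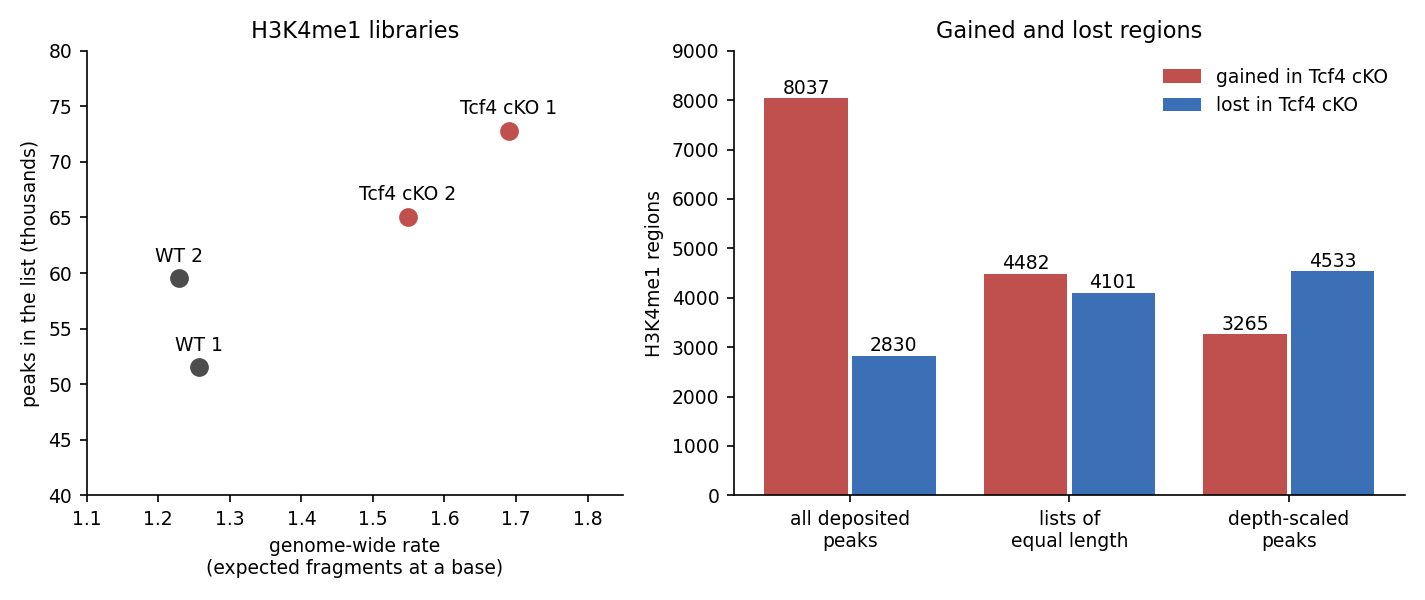
Left, peaks in each H3K4me1 list (vertical axis, in units of 1000 peaks) against the recovered genome-wide rate (horizontal axis, expected fragments at a base), 1 point per library. Right, gained and lost regions with all deposited peaks, with lists of equal length and with depth-scaled peaks; gained regions fell from 8037 to 3265 while lost regions went from 2830 to 4533.

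The classes shared part of their members across these settings. With depth-scaled peaks, 2477 gained regions were also gained (30.8% of the 8037, 75.9% of the 3265), and 1872 lost regions were also lost (66.1% of the 2830, 41.3% of the 4533). Leaving out WT replicate 1, so that 1 WT library stood for the genotype, gave 12368 gained and 11969 lost regions, and leaving out Tcf4 cKO replicate 2 gave 22971 and 5008. Just outside the classes lay 12170 regions with peaks from each Tcf4 cKO library plus 1 of WT, and 5518 with peaks from each WT library plus 1 of Tcf4 cKO.

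Gained and lost regions were narrower than kept ones. The median width was 623 bp in gained, 581 bp in lost, 1003 bp in kept and 592 bp in all regions. A kept region joins peaks of 4 libraries and a changed one of 2, so the rule itself widens kept regions. By library, Tcf4 cKO peaks covered a mean of 513 and 494 bp of gained and 778 and 747 bp of kept regions. WT peaks covered 450 and 466 bp of lost and 636 and 692 bp of kept regions. The weaker of the 2 libraries that carried a gained region had a median fold enrichment of 3.47 at its summit, resting on 13 fragments, and at a lost region 3.67, resting on 11 fragments. Just inside the limit of q = 0.05 set by the peak calls, the lowest gained region had a -log10 q of 1.33 and the lowest lost region 1.33 in its weaker library. A -log10 q of at least 5 in both libraries was reached by 411 gained (5.11%) and 72 lost regions (2.54%).

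The tallest gained region lay 2073 bp from the start site of Spp1, which encodes osteopontin, a secreted matrix protein. Its fold enrichment was 8.37 and 6.76 in the Tcf4 cKO libraries (23 and 18 fragments at the summit), with no peak in either WT library. That nearest to Pcdh9, a protocadherin gene 1996411 bp away, had 6.61 and 7.88, and that nearest to Igfbp3, an insulin-like growth factor binding protein, had 6.32 and 7.46. The region nearest to the proto-oncogene Myc, 686223 bp away, had 6.32 and 6.67. The remaining 6 of the 10 tallest lay nearest to Zfp352, Spire2, Pccb, Ctso, Barhl2 and Tmem72, with a lower value of 6.15 to 6.28. All 10 remained gained with lists of equal length and with depth-scaled peaks. An ATAC-seq peak of any library lay over 4 of the 10, and a Tcf4-tag peak over 2. Of all 107014 regions, 58.8% had an ATAC-seq peak of any library. The 2 Tcf4-tag libraries had peaks over 21.7 and 12.4% of them. The region nearest to Barhl2, a homeobox factor gene, also had H3K27ac and H3K27me3 peaks in the 2 Tcf4 cKO libraries of each and in no WT library.

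The tallest lost region lay in an intron 12699 bp from the start site of Wdr76, with 8.23 and 7.18 in the WT libraries, and 67.6% of its bases were masked repeat. At Trpm3, a cation channel gene, the nearest lost region had 6.76 and 7.0. The regions of Wdr76 and Trpm3 each had a Tcf4-tag peak in both libraries. Each also had ATAC-seq and H3K27me3 peaks in both libraries of either genotype. The region nearest to Lrriq3 had 6.91 and 6.28, and of the ATAC-seq libraries those of WT had a peak there while those of Tcf4 cKO had none. The region nearest to Aldh1a3, a retinoic acid synthesis enzyme, had 6.65 and 6.17, and that nearest to Cdh9, a cadherin gene, which both Tcf4-tag libraries also marked, had 5.76 and 5.83. The others of the 10 lay nearest to Iqcf6, Mindy3, Ccdc148, Hist1h2ba and Fbxl7, with a lower value of 5.76 to 5.93. All 10 remained lost with lists of equal length and with depth-scaled peaks. An ATAC-seq peak of some library lay over 7 of them, against 58.8% of all regions. A Tcf4-tag peak lay over 5, against 21.7 and 12.4% of all regions in its 2 libraries. CAGCTG stood within 150 bp of the summit in 8 of the 10 tallest lost and 2 of the 10 tallest gained regions. Over all regions it was at 22.4%.

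**Figure D2:**
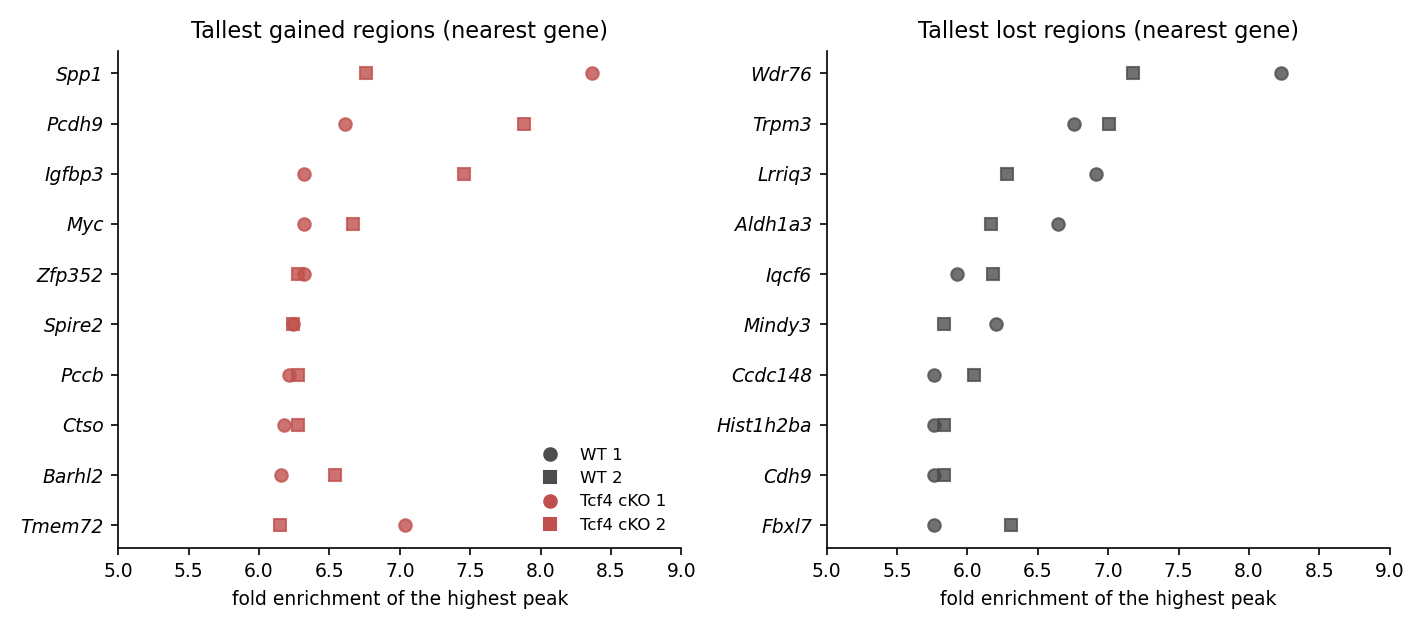
Fold enrichment (horizontal axis) of the highest peak in each library at the 10 tallest gained and the 10 tallest lost regions, named by the nearest protein-coding gene; a library without a point had no peak. Gained regions show only the 2 Tcf4 cKO libraries and lost regions only the 2 WT libraries, as the classes require, between 5.76 and 8.37.

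At the 26099 kept regions, 1 region passed the test for peak height. Heights were compared as log2 fold enrichment, quantile normalized, with limma and Benjamini-Hochberg adjustment over all kept regions. No region was higher in Tcf4 cKO (0%) and 1 was lower (0.00383%), with 899 and 933 at an unadjusted p under 0.05. That region lay 22760 bp from the start site of Fbp2, a gluconeogenic enzyme (chr13:62833074-62833808). It had 7.99 and 8.97 in the WT and 4.09 and 3.92 in the Tcf4 cKO libraries, a log2 difference of -1.03 (limma adjusted p = 0.0415). Its call was lost (0 regions higher and 0 lower) when the recovered summit pileup over the genome-wide rate was used in place of the fold enrichment. The 5th and 95th percentiles of the log2 differences at kept regions were -0.35 and 0.35. In data simulated with the spread between libraries of the same genotype, a planted log2 difference of 1 was recovered in 0% of regions and one of 2 in 43.5%. The simulation drew the spread of each region from estimates on 2 libraries per genotype, which vary more than the spread itself. It therefore sets no detection limit for the fit, in which the region near Fbp2 passed at -1.03. Between -0.35 and 0.35, where most kept regions lay, no region passed. With 2 libraries per genotype, the lack of calls there does not show that heights were equal. Kept regions have a peak in all 4 libraries by definition, so differences that removed a peak were outside this test. The peaks of a kept region covered 664 ± 39.8 bp of it in WT and 763 ± 21.8 bp in Tcf4 cKO (SD, n = 2, exact permutation p = 0.333). The libraries of higher genome-wide rate were again those of Tcf4 cKO.

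The mark was next set beside the other assays, which had no part in the choice of regions. ATAC-seq peaks lay over 32.8 and 41.1% of gained regions in the WT libraries and over 47.1 and 42.4% in the Tcf4 cKO libraries. At lost regions the order was the opposite, with 28.8 and 45.2% in WT and 21.8 and 23.3% in Tcf4 cKO. Over all 107014 regions the shares were 40.6 and 51.1% in WT and 46.0 and 44.0% in Tcf4 cKO. WT and Tcf4 cKO values did not overlap at gained or at lost regions, while they did over all regions (exact permutation p = 0.333 at gained and at lost regions, the smallest 2 against 2 allow). The difference of the means was 7.78 percentage points at gained regions, and 3.84 without Tcf4 cKO replicate 1 and 3.44 without Tcf4 cKO replicate 2 of H3K4me1. At lost regions it was -14.4, and -8.06 without WT replicate 1 and -8.00 without WT replicate 2 of H3K4me1. WT replicate 2, with 72306 peaks, had the longest ATAC-seq list, and the other 3 had 54159 to 61650.

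ATAC-seq changes of the same direction lay over more of the changed regions than opposite ones. ATAC-seq peaks of each Tcf4 cKO library, without any from WT, lay over 469 gained regions (5.84%, Wilson 95% interval 5.34 to 6.37%), 16 lost regions (0.565%) and 2.1% of all regions. The reverse pattern lay over 211 lost regions (7.46%, 6.54 to 8.48%), 105 gained regions (1.31%) and 2.15% of all regions. With depth-scaled H3K4me1 peaks these shares were 7.87% of gained regions for open chromatin in Tcf4 cKO alone and 6.88% of lost regions for open chromatin in WT alone. Most gained and lost regions showed neither pattern.

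H3K27ac, the mark of active enhancers, was lower in both Tcf4 cKO libraries at lost regions. Its peaks lay over 11.5 and 8.76% of lost regions in the WT libraries and over 7.10 and 4.49% in the Tcf4 cKO libraries. The difference of the means was -4.33 percentage points at lost regions (exact permutation p = 0.333), 0.80 at gained, -4.28 at kept and -1.96 over all regions, and the genotypes overlapped at all but the lost regions. At lost regions the mean went from 10.1 to 5.80%, and at kept regions from 44.998 to 40.7%. Leaving out either WT H3K4me1 library, the difference at lost regions was -2.09 (replicate 1) and -2.11 (replicate 2). H3K27ac peaks of each WT library, without any from Tcf4 cKO, lay over 44 lost regions (1.55%, against 1.56% of all regions), and the reverse over 96 gained regions (1.19%, against 0.885% of all). With depth-scaled H3K4me1 peaks, H3K27ac in WT alone lay over 2.67% of lost regions (2.24 to 3.18%) against 1.86% of all, and with lists of equal length over 2.37 against 1.75%. Kept regions had more of it, with 3.42% for all deposited peaks, 3.75% for depth-scaled peaks and 3.63% for lists of equal length. H3K27ac in Tcf4 cKO alone lay over 1.64% of kept regions with all deposited peaks, also above the gained share. With all deposited peaks, H3K27ac in Tcf4 cKO alone lay over 13 lost regions (0.459%). H3K27me3 lay over 4.10 to 5.19% of lost and 6.73 to 8.31% of gained regions in its 4 libraries, with no separation of the genotypes. It was present in Tcf4 cKO alone at 65 gained regions (0.809%, against 0.806% of all) and in WT alone at 12 lost regions (0.424%, against 0.711% of all).

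Tcf4-tag peaks were fewer at changed than at kept regions. The 2 Tcf4-tag libraries had a peak over 16.4 and 9.42% of gained, 13.4 and 7.03% of lost, 44.1 and 25.7% of kept and 21.7 and 12.4% of all regions. Kept regions were also the widest class. When classes were formed without WT replicate 2, the mean Tcf4-tag share of gained regions was 3.68 percentage points above that of all regions, so the order of gained and all regions rested on that library. These peaks were measured in mice with Tcf4, not in Tcf4 cKO.

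**Figure D3:**
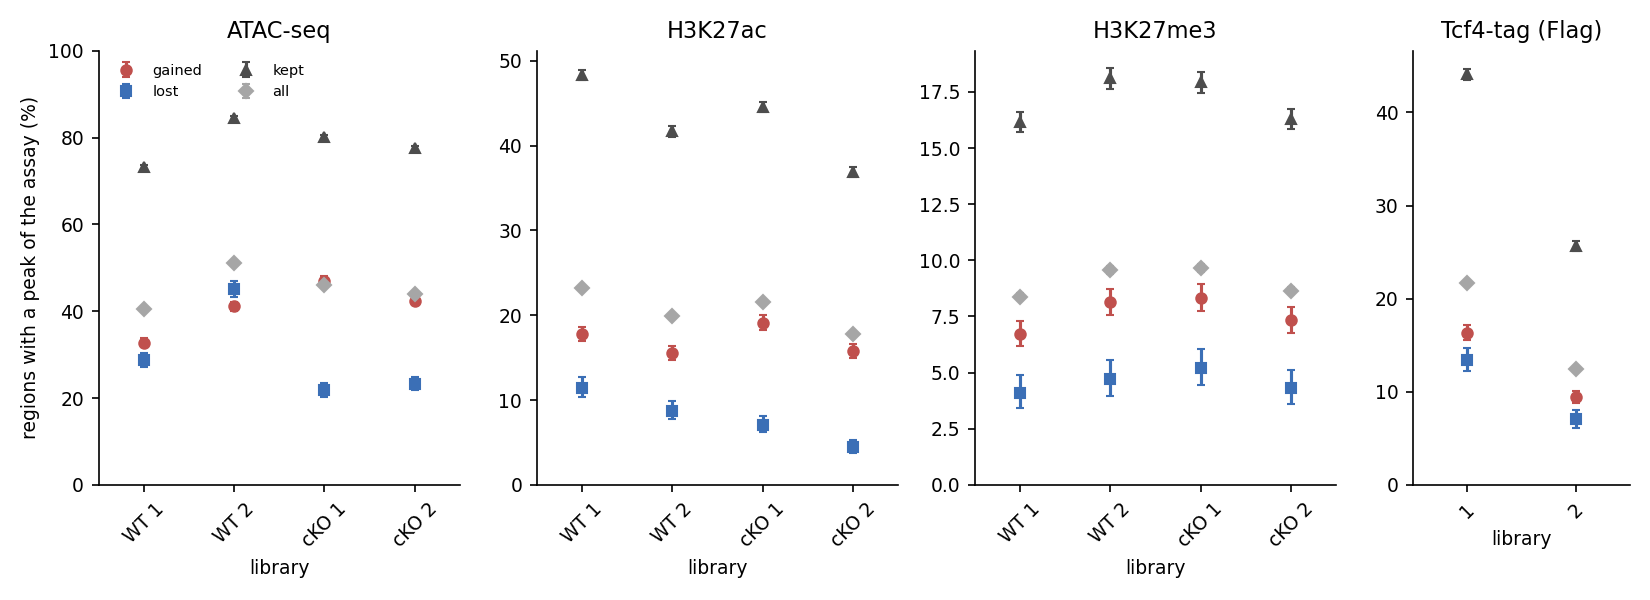
Share of gained, lost, kept and all merged H3K4me1 regions (vertical axis, percent) with a peak of each library of ATAC-seq, H3K27ac, H3K27me3 and Tcf4-tag Cut&Tag (horizontal axis); bars are Wilson 95% intervals. Kept regions lie highest in every library, and ATAC-seq at lost regions is lower in both Tcf4 cKO libraries (21.8 and 23.3%) than in both WT libraries (28.8 and 45.2%).

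The same was measured on the authors' consensus ATAC-seq regions, for which the deposited table gives 1 mean per genotype and no spread. Outside promoters, the authors' means differed by a median log2 value of 0.08 (Tcf4 cKO minus WT, 95% interval over regions 0.03 to 0.12) at the 764 consensus regions over gained H3K4me1 regions and by -0.39 (-0.53 to -0.26) at the 267 over lost ones. The median over all 18211 such regions was -0.07. A decrease past 1 log2 unit was found at 79 of the 267 (29.6%), against 6.83% of all, and an increase past 1 at 86 of the 764 (11.3%), against 4.68% of all. With promoters included, the median at gained regions was -0.09, level with the -0.10 of all 32120 consensus regions, and at lost regions it was -0.26. Accessibility was therefore lower at lost regions in either set, while the sign at gained regions depended on promoters.

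**Figure D4:**
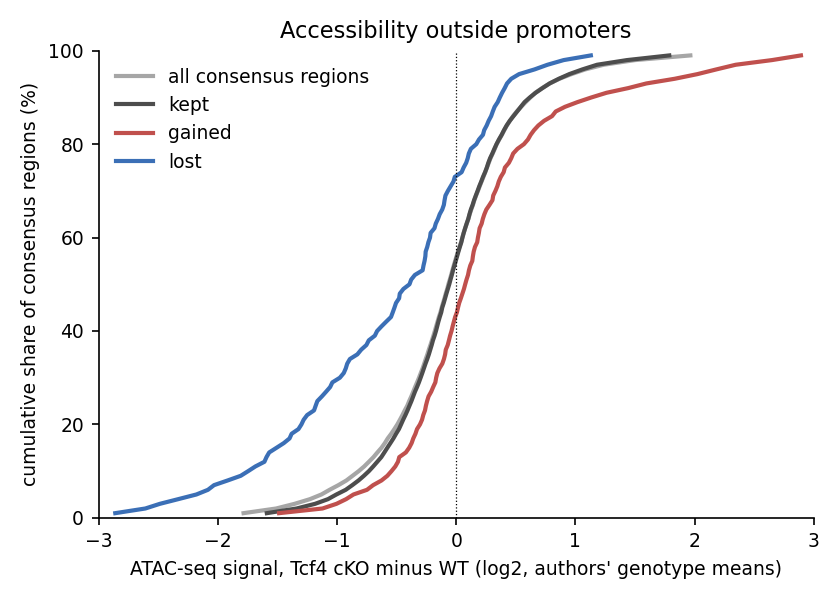
Cumulative share of consensus ATAC-seq regions outside promoters (vertical axis, percent) by the difference of the authors' genotype means (horizontal axis, log2, Tcf4 cKO minus WT), for regions over gained, lost and kept H3K4me1 regions and for all. The lost curve lies to the left of the others, with a median of -0.39, and the gained curve to the right, with a median of 0.08.

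Lost regions lay away from promoters. Within 1 kb of a start site were 8.48% of lost regions (7.51 to 9.56%), 20.3% of gained (19.4 to 21.2%), 26.9% of kept and 19.5% of all regions. Introns held 53.1% of lost, 43.0% of gained and 36.1% of kept regions, and intergenic sequence held 33.9, 33.2 and 33.1%. With depth-scaled peaks, promoters held 11.98% of lost and 22.1% of gained regions. The median GC content was 47.6% in lost, 48.8% in gained and 50.1% in kept regions. Repeats were alike, at a median of 10.0, 8.24 and 8.81% of bases. The median distance to the nearest kept region was 25463 bp for gained and 25770 bp for lost regions.

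Lost regions were rich in the E-box CAGCTG, a core bound by E proteins and their partners. It stood within 150 bp of the summit, on either strand, in 30.5% of lost regions (28.8 to 32.2%), 18.8% of gained regions (17.96 to 19.7%), 25.5% of kept and 22.4% of all regions. The difference between gained and lost was -11.7 percentage points (95% interval -13.6 to -9.81), -9.39 with depth-scaled peaks and -11.6 outside promoters. Leaving out 1 library at a time, it was between -9.60 and -4.89, and it was smallest without WT replicate 2. CATCTG, an E-box of the proneural kind, was found at 28.7% of lost and 21.5% of gained regions, and any E-box (CANNTG, which includes both and CACGTG) at 84.9 and 78.7%. The E-box CACGTG, bound by factors of the Myc and USF families, was at 3.96 and 5.16%. These 3 gaps narrowed with 1 library left out, for CATCTG from -7.17 to -4.50 without Tcf4 cKO replicate 1 and -4.78 without WT replicate 1. For any E-box the gap went from -6.17 to -3.07 without Tcf4 cKO replicate 2 and -4.05 without WT replicate 1. For the Myc and USF core it went from 1.21 to 0.20 without Tcf4 cKO replicate 1, 0.78 without WT replicate 1 and 0.80 without Tcf4 cKO replicate 2.

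The NFI half-site TTGGCA went the other way. It stood at 23.2% of gained (22.3 to 24.1%), 17.3% of lost (15.9 to 18.7%), 19.02% of kept and 19.3% of all regions, a difference of 5.90 percentage points between gained and lost. That difference was 6.40 with depth-scaled peaks, 8.10 outside promoters and 3.34 to 6.16 with 1 library left out. When all regions were divided into 5 classes of GC content, CAGCTG was more frequent at lost than at gained regions in each, with 22.0 against 12.1% in the lowest and 36.3 against 20.6% in the highest class. TTGGCA was more frequent at gained regions in 4 of the 5, and in the highest class it was at 15.3% of gained and 16.01% of lost regions.

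Of the remaining cores, ACAATG, of the SOX type, was at 20.3% of lost and 14.9% of gained regions, and ACAAAG, of the TCF/LEF type, at 30.1 and 25.5%. Without WT replicate 1 the SOX gap went from -5.39 to -2.29 and the TCF/LEF gap from -4.60 to -1.91. The AP-1 core TGACTCA differed by -1.45 percentage points (gained minus lost), and by -0.67 without WT replicate 1, -0.83 without WT replicate 2 and -0.70 without Tcf4 cKO replicate 2. The homeodomain core with the letters TAATTA differed by -0.72. For the GATA type, searched as GATAAG, the difference was -0.97. At regions with a peak in both Tcf4-tag libraries, CAGCTG was at 43.2% of the 162 lost, 21.8% of the 705 gained and 25.8% of all 12107. Where neither Tcf4-tag library had a peak, it was at 28.7% of lost and 18.5% of gained regions, so the contrast was present with and without a Tcf4-tag peak. Regions are not replicates, and these intervals cover counting error only.

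**Figure D5:**
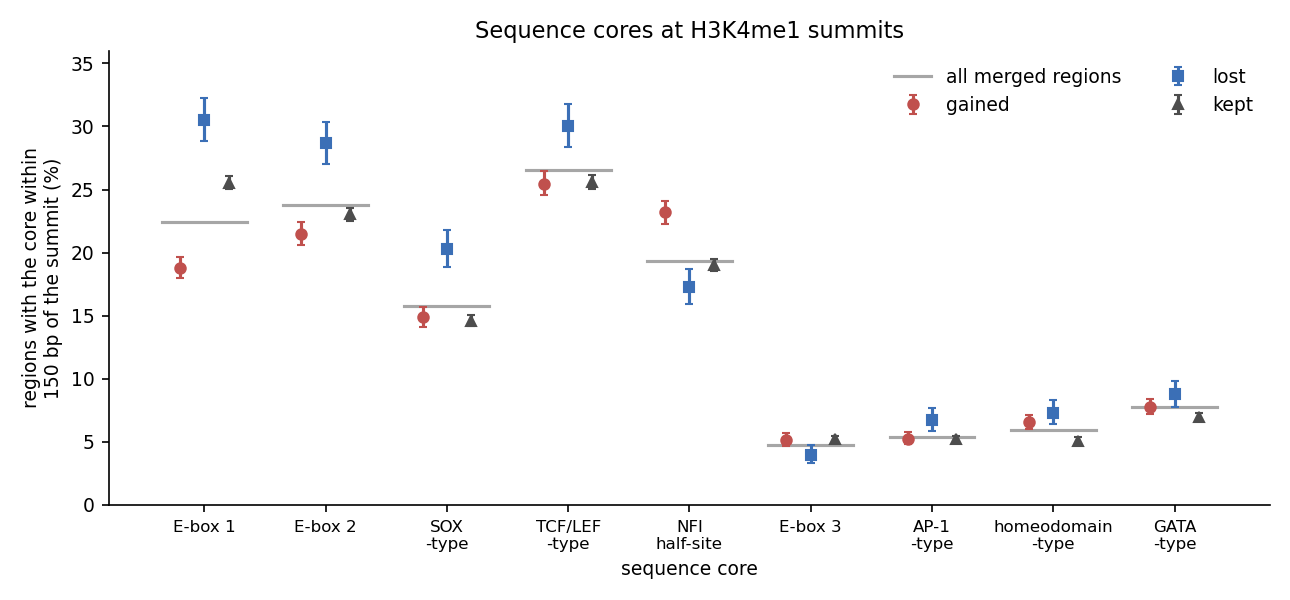
Share of gained, lost and kept regions (vertical axis, percent, bars are Wilson 95% intervals) with a sequence core within 150 bp of the summit, on either strand; grey lines give all merged regions. E-box 1 is CAGCTG, E-box 2 CATCTG and E-box 3 CACGTG; E-box 1 is at 30.5% of lost and 18.8% of gained regions and the NFI half-site at 23.2% of gained and 17.3% of lost regions.

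Regions were assigned to the nearest protein-coding start site within 1 Mb. Of 21911 protein-coding genes, 23.1% had a gained, 10.4% a lost and 49.9% a kept region. Of the 119 genes in 8 lists of lineage markers and factors, 50 had a gained, 27 a lost and 95 a kept region, with 107 gained and 41 lost regions in all. With depth-scaled peaks, 31 of the 119 had a gained and 42 a lost region, and of all protein-coding genes 11.8 and 15.3% did. Kept regions were found at 23 of 27 oligodendrocyte, 26 of 32 astrocyte and 19 of 22 interneuron and ventral genes, and also at 6 of 11 microglia and 8 of 11 endothelial and mural genes. With assignment within 100 kb, 41 of the 119 genes had a gained and 22 a lost region, against 4603 and 1962 of the 21911. Whether the intergenic space around the listed genes has a part in these counts was not tested, so the counts are a description. At the kept regions of the lists the median log2 difference in height ran from -0.05 to 0.07, and none passed limma.

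Of the 27 oligodendrocyte lineage genes, 14 had a gained and 6 a lost region, and with depth-scaled peaks 9 and 8. Pdgfra, the receptor of oligodendrocyte precursors, had 3 gained regions. The tallest, 30590 bp from its start site, had fold enrichments of 5.20 and 5.10 in Tcf4 cKO with no WT peak. Its lost region had 3.60 and 3.09 in WT. Bcas1, a gene of newly forming oligodendrocytes, had 3 gained regions and 1 lost. Mbp, of myelin, had 2 gained and 1 lost, and Lhfpl3 2 gained. Nkx2-2 had 1 gained region (4.57 and 4.13) and Ptprz1 1 (4.37 and 4.49), and both remained gained with depth-scaled peaks. Olig1 had 1 of each. Nkx6-2, Zfp488 and Ugt8a had 1 gained region each. With depth-scaled peaks Mbp turned to 1 gained and 2 lost, Olig1 to 1 lost and none gained, and Bcas1 to 1 of each. Pdgfra had 2 gained and none lost there, Lhfpl3 2 gained and Ugt8a 1 gained, while Nkx6-2 and Zfp488 had no changed region. The gained region of Ugt8a with all deposited peaks and 1 of the 2 of Lhfpl3 did not remain gained, so these counts include other regions.

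Of the 32 astrocyte lineage genes, 11 had a gained and 7 a lost region, an order that turned to 8 and 11 with lists of equal length and to 7 and 13 with depth-scaled peaks. Glul, glutamine synthetase, had 4 gained regions and no lost one. The tallest of these, 138908 bp from its start site and printed above, had 5.58 and 7.40 in Tcf4 cKO, and the ATAC-seq libraries of Tcf4 cKO, and not those of WT, had a peak there. Tnc, the matrix protein tenascin C, also had 4 gained regions, led by 1 with 5.05 and 6.01. Gja1, connexin 43, had 2, led by 1 with 5.20 and 6.28. Sox9 had 5 gained and 2 lost, Aqp4 2 gained, and Aldh1l1 and Hes5 1 gained each, while Slc4a4 had 2 lost regions. With depth-scaled peaks Sox9 turned to 2 gained and 5 lost, Hes5 to 1 lost and none gained, and Aldh1l1 had no changed region. Tnc had 2 of each there, Aqp4 1 of each, Glul and Gja1 1 gained each, and Slc4a4 1 lost. With lists of equal length Glul had 1 gained and 1 lost.

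Of the 9 lost regions at astrocyte genes, ATAC-seq peaks had the same pattern at 3. Over the 41 lost regions of all lists it was 4, and over all lost regions 7.46%. Of the 107 gained regions of the lists, 3 had ATAC-seq peaks in both Tcf4 cKO libraries alone, against 5.84% of all gained regions. The region nearest to Id4, an inhibitor of E proteins, 449719 bp away and printed above, had 4.07 and 4.49 in the WT libraries. The region 1824 bp from the start site of Gjb6, connexin 30, had 3.44 and 2.91, with a Tcf4-tag peak in 1 library. The region at the promoter of Stat3, 236 bp from its start site, had 4.59 and 3.77, also with a Tcf4-tag peak in 1 library. In each, the ATAC-seq libraries of WT, and not those of Tcf4 cKO, had a peak. The regions at Id4 and Stat3 remained lost with depth-scaled peaks and that at Gjb6 did not.

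Of the 22 interneuron and ventral genes, 9 had a gained and 6 a lost region, against 9 and 9 with lists of equal length and 9 and 11 with depth-scaled peaks. Sox6 had 9 gained regions and 1 lost, and 6 of the gained ones remained so with depth-scaled peaks. The tallest had 5.26 and 5.07, and another, with 3.90 and 4.08, had ATAC-seq peaks in the 2 Tcf4 cKO libraries alone. Maf had 6 gained and 1 lost, and Satb1 3 gained, among them its promoter (3.62 and 4.13). Erbb4, the neuregulin receptor of migrating interneurons, had the most lost regions of any gene, 6, beside 5 gained. The tallest lost one had 5.32 and 5.38 in WT, and 4 of the 6 remained lost with depth-scaled peaks. Nkx2-1, the gene of the lineage, had 1 gained (3.63 and 3.45) and 1 lost region (4.72 and 4.53). Gad2, Dlx5, Cxcr4 and Zeb2 had gained regions without a lost one, and Slc32a1 and Sst lost regions without a gained one. With depth-scaled peaks Cxcr4 had 1 gained and 5 lost, Zeb2 1 lost and none gained, and Dlx5 1 of each. The gained region of Zeb2 had ATAC-seq peaks in the 2 WT libraries alone.

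Of the 11 projection neuron genes, 6 had a gained and 3 a lost region, and with depth-scaled peaks 5 and 5. Cux2 had 4 lost regions in its introns and 1 gained. The region 11205 bp from a Cux2 start site had 3.36 and 2.51 in WT, and its ATAC-seq peaks were in the 2 WT libraries alone. Bcl11b had 3 of each, Neurod6 2 gained, led by 1 with 5.81 and 5.10, and Eomes 2 gained. Emx1 had 1 gained. With depth-scaled peaks Bcl11b turned to 1 gained and 4 lost, Neurod6 to 1 of each, and Emx1 to 1 lost and none gained. Eomes had 1 gained there and Cux2 2 lost. Of the 11 microglia genes, Cx3cr1, C1qa and Spi1 had 1 gained region each, none of them with depth-scaled peaks. Sall1, which astroglial progenitors also express, had 1 gained and 1 lost. The gained region of Sall1 had 4.45 and 5.46 and ATAC-seq peaks in the 2 Tcf4 cKO libraries alone. Of the 11 endothelial and mural genes, Cdh5 had 5 gained and 2 lost, none of the gained ones with depth-scaled peaks. Flt1 and Rgs5 had 1 gained, Kdr 1 lost and Mcam 2 lost. Flt1, Rgs5 and Kdr had no changed region with depth-scaled peaks, and Mcam had 1 lost.

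Among E proteins and Id factors, Tcf4 itself, on chromosome 18, had 17 kept, 2 gained and 1 lost region. The gained ones had 3.62 and 3.54, and 2.77 and 2.51, in Tcf4 cKO. Neither remained gained with depth-scaled peaks, whereas the lost one (4.44 and 3.57 in WT) remained lost. The log2 differences in height at its kept regions ran from -0.32 to 0.31, and none passed limma (lowest adjusted p = 0.789). Peaks of this mark over an intact promoter do not report the deletion, so they are no check of the genotype labels. Tcf12, another E protein, had 2 gained regions (4.11 and 5.34, 3.72 and 3.87), neither of them with depth-scaled peaks. Id2 had 1 gained region, and with depth-scaled peaks 1 lost and none gained. Id4 had 3 gained regions beside its lost one. Of the 7 genes of this list, 4 had a gained and 2 a lost region, and with depth-scaled peaks 1 and 3.

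The remaining genes the study named for these assays showed gains and losses side by side. This list was chosen by the study on these mice, so its counts are not independent evidence. Nfib had 6 gained regions, 1 lost and 17 kept, and with depth-scaled peaks 3 gained and 4 lost. The 3 that remained gained had 3.63 and 4.85, 3.97 and 3.82, and 3.51 and 3.38 in the Tcf4 cKO libraries. Nfia had 1 gained (3.30 and 3.13) and 1 lost (3.39 and 3.97). Olig2 had 1 gained (3.96 and 4.30) and 1 lost (3.44 and 4.92), both also with depth-scaled peaks. Tcf7l2 had 2 gained, led by 1 with 3.77 and 3.83, and Myrf 1 gained (2.79 and 3.80). Fgfr3 and Nfix had 1 and 2 kept regions and no changed one. With depth-scaled peaks Nfix had 1 lost region and none kept, and with lists of equal length 1 lost. Of the other genes, Tcf7l2 had 1 gained and 1 lost with depth-scaled peaks, Nfia 1 lost and none gained, and Olig2 1 gained and 2 lost. Myrf had no changed region with depth-scaled peaks or with lists of equal length.

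Across all genes, the most gained regions lay nearest to Cwc22, a splicing factor gene, with 13 gained and no lost region. With depth-scaled peaks it had 9 gained and none lost. Nav3, Opcml and Pde4d followed with 12 each, Ptprt with 11, Ntm, Tenm2 and Tenm3 with 10, and Sox6 with 9. With depth-scaled peaks Nav3 had 4 gained and 2 lost, Opcml 4 and 1, Pde4d 5 and 4, and Tenm3 4 and 3. Sox6 had 6 and 2 there, whereas Ptprt had 1 and 2, Ntm 2 and 6, and Tenm2 4 and 5. Opcml and Ntm encode neighbouring cell adhesion molecules. Apart from Cwc22 these genes spanned 568 to 1504 kb, and they had 8 to 13 kept regions each. After Erbb4, the most lost regions lay at Camta1, Fhit and Gm10260 with 5 each, and 15 genes had 4, among them Cux2, Dact1 and Kirrel3. Gained regions numbered 5 at Camta1, 4 at Fhit, 2 at Gm10260, 1 at Cux2, 2 at Dact1 and 5 at Kirrel3. With depth-scaled peaks Fhit, with 6 lost regions, stood ahead of Erbb4, with 4. Camta1 had 5 lost there, Gm10260 3, Cux2 2, Dact1 4 and Kirrel3 5. Erbb4, Camta1, Fhit and Kirrel3 spanned 551 to 1612 kb. By windows of 1 Mb, the most gained regions were 16 on chromosome 6 from 146000001 to 147000000, with 8 of them at Itpr2, and the most lost were 8 on chromosome 8 from 25000001 to 26000000. With depth-scaled peaks 6 of these 16 remained gained and 5 of these 8 remained lost. Gained regions reached 10 in 45 of 2501 windows and lost regions in 0.

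On the X chromosome 9.12% of regions were gained and 1.17% lost, against 6.20 to 8.23% and 2.25 to 3.15% on the autosomes. The WT lists had 1.23 ± 0.06% of their peaks there and the Tcf4 cKO lists 1.48 ± 0.06% (SD, n = 2, exact permutation p = 0.333). The sex of the pups is not given in the sources used here, and its part in this was not tested. With depth-scaled peaks the X chromosome had 51 gained and 46 lost regions. On autosomes alone, 7867 regions were gained and 2808 lost.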

How the data were processed

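H3K4me1 was measured by Cut&Tag in 2 WT and 2 Tcf4 cKO libraries. The genotype and replicate of each library come from its label. Per the labels, the authors used Trim Galore, Bowtie2, SAMtools and MACS2 on mm10. They removed duplicates before calling peaks for each library. The deposited lists give each peak a fold enrichment over local background, with its -log10 p-value and the -log10 of its q-value. No read counts were used. Depth was therefore recovered as whole summit pileups (within 0.001 of the deposited -log10 p). In the deposited consensus ATAC-seq table, the authors give 1 log2 mean per genotype. Its columns of fold change, p and FDR hold the authors' own comparison and were not used, nor was the deposited table of motif footprints.

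Peaks were merged at an overlap of 1 bp. 10 peaks on the mitochondrial chromosome were left out. Kept heights were tested with limma 3.58.1 in R 4.3.3, with quantile normalization and threshold 0.05. The replicate numbers did not pair the libraries. Python 3.11.15 with scipy 1.17.1 did the rest. Promoters lay within 1 kb of GENCODE M21 start sites, and sequence came from RefSeq GRCm38. Merging, classes, overlaps, pileup recovery, core search and limma were tested on simulated data. Intervals on shares are Wilson 95% intervals, and those on medians and differences are 95% intervals, all over regions.

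Named are the 10 tallest gained and lost regions on autosomes other than 18, kept regions passing limma, list genes with a changed region, the 10 genes with most gained or lost regions, genes the study names and the fullest 1 Mb windows. The printed sequences, the Tcf4-tag split and the GC classes were chosen after the values were seen. Members and lists were chosen with earlier results of these data known. Some genes covered by this rule are not reported here.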

Additional observations from a re-analysis of the deposited data

How the results depend on the processing

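The balance of gained against lost regions changed with how the lists were matched. Under the stricter limit of -log10 q, 5, there were 3884 gained, 754 lost and 3519 kept regions (83.7% of changed regions gained), and with lists of equal length 4482 gained (52.2%). With depth-scaled peaks, chosen after seeing the data, there were 3265 gained, 4533 lost and 16841 kept regions (41.9% gained, a reversal), and with a -log10 p of at least 5 without scaling 72.4% were gained. Requiring peaks over the majority of a region left 12259 kept. Without 1 replicate, gained regions numbered 12368 to 22971, lost 5008 to 11969 and kept 28277 to 33938, and 50.8 to 82.1% of changed regions were gained. limma called 4 kept regions lower without normalization, 0 under the stricter q limit and 0 on summit pileups. Without 1 replicate it called 1 to 5 higher and 1 to 4 lower. The replicate numbers did not pair the libraries (correlation of deviations 0.0040 over 26099 regions), and with a replicate block 0 regions were higher and 1 lower, as without it.

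Relative to all regions, the mean Tcf4-tag share was -8.73 to 3.68 percentage points at gained regions (reversed, at 3.68, without WT replicate 2) and -11.2 to -3.71 at lost regions without 1 replicate. The genotype difference in H3K27ac at gained regions reversed to -0.32 without WT replicate 2 (-0.32 to 0.32 without 1 replicate, 0.80 to 1.73 otherwise). At lost regions it was -4.79 to -2.09 without 1 replicate and -5.38 to -4.33 otherwise. In H3K27me3 at lost regions it reversed to -0.098 with lists of equal length and -0.099 with depth-scaled peaks. Outside promoters, consensus accessibility moved to 0.075 at gained (a reversal), -0.392 at lost and -0.058 at kept regions, and with depth-scaled peaks to -0.074 at gained and -0.061 at kept regions. Within 2.5 kb, promoters held 27.9% of gained, 18.2% of lost and 33.5% of kept regions. They held 22.0, 11.2 and 28.9% with lists of equal length, and 22.1, 11.98 and 29.8% with depth-scaled peaks. Within 75 bp of the summit, the gained minus lost difference was -6.96 for CAGCTG and 3.54 for TTGGCA. Outside promoters it was 8.10 for TTGGCA, and with depth-scaled peaks -9.39 for CAGCTG. Without 1 replicate it was -9.60 to -4.89 for CAGCTG and 3.34 to 6.16 for TTGGCA. For TAATTA it reversed to 0.12 outside promoters, 0.53 without WT replicate 1 and 0.36 without Tcf4 cKO replicate 1, from -1.12 without WT replicate 2. The cause of these shifts was not tested.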
